A study of Mus musculus with 2 samples.

Results

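The histone genes of the deposited table were described in Th17 cells of 2 genotypes. Members were the rows whose gene symbol starts with Hist1h to Hist4h, H2af, H3f3 or H1f, and 58 of 17002 genes met this rule. They comprised 48 replication-dependent genes, whose symbols start with Hist, and 10 replacement genes, whose symbols start with H2af, H3f3 or H1f. The choice used symbols alone and no measured value.

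Th17 cells are helper T cells that secrete interleukin-17. Both cultures started from naive CD4+ T cells of the spleen of C57BL/6 mice and were kept for 3 days in conditions that favour Th17 differentiation. One culture came from wild-type mice and the other from mice without lncRNA-GM (lncRNA-GM-/-), a long noncoding RNA that the study ties to the transcription factor Foxo1. The sources used here do not give the number of mice behind a culture or the type of deletion. Each genotype had 1 library, so no difference below has a replicate check or a test, and each compares 2 libraries, not 2 conditions. In bulk RNA, fewer cells of a type and less RNA per cell cannot be told apart.

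Histones package DNA. H2A, H2B, H3 and H4 form the core of the nucleosome, and H1 binds the linker DNA between nucleosomes. Replication-dependent genes lie in clusters, are transcribed in S phase to package new DNA, and give mRNAs without introns that classically end in a stem-loop, bound by the protein SLBP, in place of a poly(A) tail. Replacement genes lie apart, are transcribed through the cell cycle, mostly give polyadenylated mRNAs, and supply variants such as H2A.Z, macroH2A and H3.3. Activated T cells divide fast in the first days of culture, which makes both supplies of interest here. The labels give total RNA, and the sources used here do not say how RNA was selected before library construction.

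The stem-loop sequences are shown because they mark the class of gene and because 1 pair of H2A genes departs from the rest in the bases before it. A search of the annotated mouse transcripts (GENCODE M21, build GRCm38) for the 16-base pattern of a 6-base stem, a 4-base loop and the returning stem found it in 34 of the 48 replication-dependent genes and in 1 replacement gene, H2afx. It is read 5′ to 3′ with the stems in capitals and the loop in lower case.
Stem-loop of 19 genes of the H1, H2A, H2B and H3 classes: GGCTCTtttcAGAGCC
Stem-loop of 5 genes of the H2B and H3 classes: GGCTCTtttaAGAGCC
Stem-loop of 5 H4 genes: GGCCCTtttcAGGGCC
Stem-loop of H2afx: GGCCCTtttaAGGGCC
The H4 form changes both arms of the stem together, so the bases still pair. The H2afx gene encodes H2A.X, the variant that is phosphorylated at DNA breaks.

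The bases directly before the stem-loop set Hist1h2ap and Hist1h2ao apart. The median over the 35 genes was a run of 3 A directly before it, and 2 genes, Hist1h2ap and Hist1h2ao, had a run of 10 or more. Here the run before the stem-loop is in lower case and the 16 bases in capitals.
Hist1h2ap and Hist1h2ao: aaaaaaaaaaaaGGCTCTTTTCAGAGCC
Hist2h2aa1 and Hist2h2aa2: aaaaaGGCTCTTTTCAGAGCC
Hist1h2ab, with the run of the median gene: aaaGGCTCTTTTCAGAGCC
The run in Hist1h2ap and Hist1h2ao is 12 bases long. Whether it bears on how their mRNAs entered the libraries was not tested.

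H2A copies are nearly the same gene, which limits what can be read from a single copy. The coding sequences of Hist1h2ap and Hist1h2ao, 393 bases each, were identical, as were those of Hist2h2aa1 and Hist2h2aa2 and those of Hist1h2bq and Hist1h2br. Hist1h2ai differed from Hist1h2ap at 6 positions, counted from the A of the start codon, with the base of Hist1h2ap first: T24C, C51T, C150G, A387G, A390G and A392G. The last 33 coding bases, positions 361 to 393, show the cluster of differences at the stop codon, with bases that differ from Hist1h2ap in capitals.
Hist1h2ap and Hist1h2ao: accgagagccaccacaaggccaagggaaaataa
Hist1h2ai: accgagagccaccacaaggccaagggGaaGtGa
Hist2h2aa1 and Hist2h2aa2: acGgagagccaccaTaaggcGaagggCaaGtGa
Identity to Hist1h2ap over the coding sequence was 98.47% for Hist1h2ai, 91.35% for the Hist2h2aa pair and 88.55% for Hist3h2a. Hist1h2ag (99.24%) and Hist1h2an (98.73%) were closer than Hist1h2ai, and Hist1h2ae (98.47%) was as close. In GENCODE M21 the transcript of Hist2h2aa2, 528 bases, lies whole within that of Hist2h2aa1, 586 bases. In RefSeq Hist2h2aa2 is the longer gene, from 96239779 to 96240374 against 96245497 to 96246052 for Hist2h2aa1. Reads of the shared coding sequence cannot be told apart between them.

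Levels are FPKM, fragments scaled to transcript length and library size, a unit inferred from the values because the file header says only expression. The wild-type library held about 19.2 M reads and the knockout library about 18.9 M, both estimated. A gene counts as measured with at least 1 FPKM in 1 library, and as lower or higher when FPKM + 1 differed by at least 1.5-fold, knockout against wild type. Of 10998 measured genes, 5.19% were lower and 2.71% higher by this rule, 7.9% in all, and the median log2 ratio was -0.03. The Th17 genes Il17f (1056 and 382 FPKM) and Il17a (392 and 178 FPKM) were abundant in both libraries and lower in the knockout library, and Ccr6 read 3.35 and 4.85 FPKM. No row was matched to lncRNA-GM, and the label of the knockout library therefore has no check from its target.

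**Figure D1:**
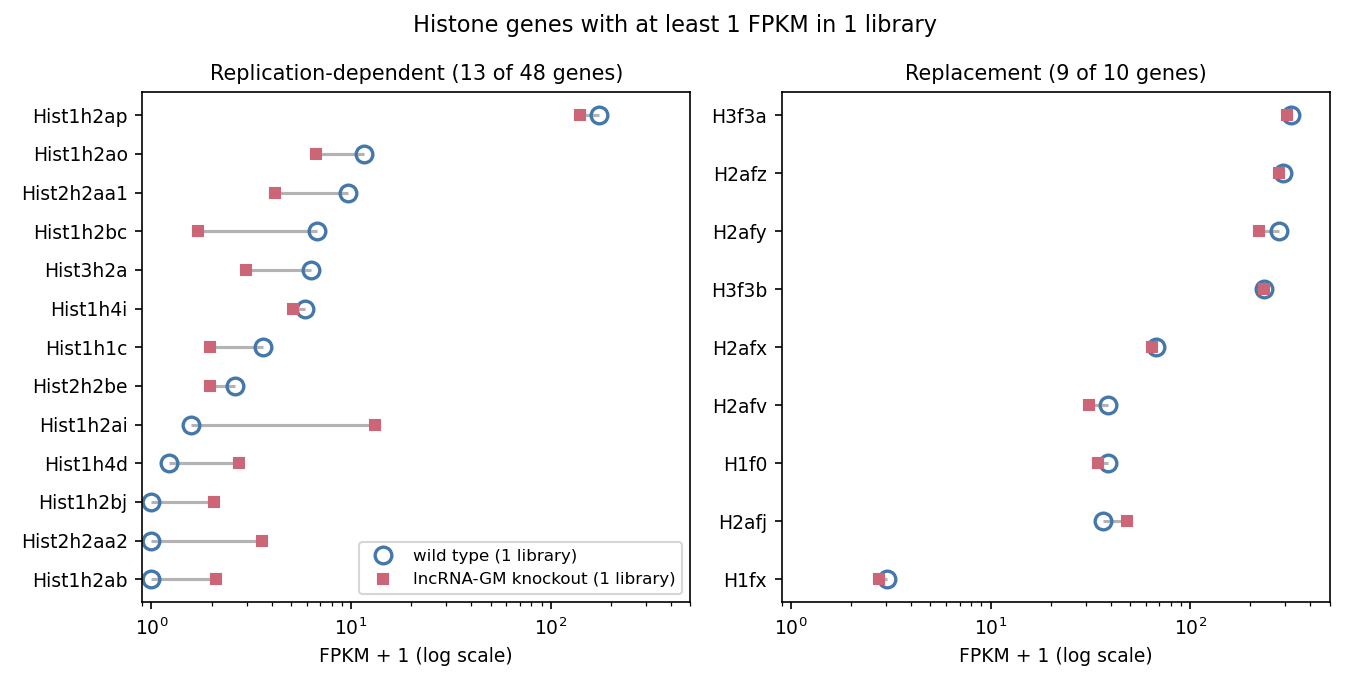
Levels of the 22 measured histone genes, as FPKM + 1 on a log axis, with an open circle for the wild-type library and a square for the knockout library. The 9 replacement genes lie close together in the libraries, while 10 of the 13 replication-dependent genes lie at least 1.5-fold apart, 7 of them with 1 FPKM reached only in the library where they are high.

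Replacement genes carried most histone FPKM in both libraries, and none passed 1.5-fold between them. Their summed level was 1300 FPKM in wild type and 1215 FPKM in the knockout, against 223 and 183 FPKM for all 48 replication-dependent genes. Since the selection of RNA is not known, these sums describe the libraries and not the mRNA content of the cells. Of the 10 genes, 9 were measured, 0 were lower and 0 were higher, beside 7.9% past the limit in either direction among all measured genes, and their median log2 ratio was -0.08. With 9 genes, a count of 0 is near that share. Each of the 9 reached 1 FPKM in both libraries.

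H3f3a and H3f3b both encode H3.3, the H3 variant deposited outside replication and at active genes. H3f3a read 318 FPKM in wild type and 306 FPKM in the knockout, a log2 ratio of FPKM + 1 of -0.05. H3f3b read 233 and 234 FPKM, a log2 ratio of 0.01. Their summed read ratio was -0.02 on the log2 scale, with a 95% counting interval from -0.05 to 0.01. This interval and those that follow are exact binomial intervals of reads reconstructed from the deposited p-values. They cover counting error only and say nothing of the spread between cultures. Some also rest on transcript length, because more than 1 pair of read numbers gave the p-value. There were 856 such pairs for H3f3b, 8 for H3f3a and 7 for H2afz, and the pair nearest to transcript length was taken.

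Among the H2A variants, H2afy, H2afv and H2afz were lower and H2afj higher with counting intervals that left out 0, all under 1.5-fold. H2afy encodes macroH2A1, a large variant with a non-histone domain that is enriched on the inactive X chromosome. It read 277 FPKM in wild type and 220 FPKM in the knockout, a log2 read ratio of -0.33 with a counting interval from -0.37 to -0.29. H2afj, which encodes H2A.J, read 35.7 and 47.4 FPKM, a log2 read ratio of 0.41 with an interval from 0.30 to 0.52. The related gene H2afy2, for macroH2A2, read 0.36 and 0.43 FPKM and was the 1 replacement gene below the minimum.

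H2A.Z, the variant at promoters, is made by H2afz and H2afv. H2afz read 292 FPKM in wild type and 279 FPKM in the knockout, a log2 ratio of FPKM + 1 of -0.07. Its read interval ran from -0.12 to -0.01. H2afv read 37.8 and 30.2 FPKM, a log2 read ratio of -0.32 with an interval from -0.45 to -0.20. H2afz supplied 88.5% of their summed FPKM in the wild-type and 90.2% in the knockout library, so the sum had a log2 ratio of -0.09. H2afx read 66.6 and 63.0 FPKM, a log2 ratio of -0.08.

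Linker histones of the replacement kind were led by H1f0, which encodes H1.0 and is known from non-dividing cells. It read 37.7 FPKM in wild type and 33.3 FPKM in the knockout, a log2 ratio of -0.17. H1fx, for H1X, read 2.02 and 1.75 FPKM. Their read ratios were -0.18 with an interval from -0.28 to -0.08 for H1f0 and -0.20 with an interval from -0.90 to 0.48 for H1fx.

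Replication-dependent genes were mostly near the limit of detection. Of the 48, 13 were measured and 35 stayed below 1 FPKM in both libraries, with a highest value of 0.97 FPKM. Of those 35, 14 were listed at 0 in the knockout library and 7 in the wild-type library, and 14 were above 0 in both. No more than 11 reads lay behind any 1 of these 35 values in a library, and 19 of the genes read lower and 16 higher in the knockout library. Counting intervals reached 0 for all but 2 of these genes, Hist1h2ag (6 and 0 reads) and Hist1h2be (8 and 1 reads), both lower in the knockout library and named after their values were seen. For the others no difference was detectable at this depth.

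One H2A gene made up most of the replication-dependent signal. Hist1h2ap read 174 FPKM in wild type and 139 FPKM in the knockout, which was 77.7% and 76.0% of the summed FPKM of the 48 genes. About 1427 and 1122 reads gave a log2 read ratio of -0.32, with a counting interval from -0.44 to -0.21. It lies on chromosome 13 from 21833024 to 21833475 (GRCm38.p6), in the Hist1 cluster of 37 member genes between 21716412 and 23764412. Without Hist1h2ap the other 47 genes summed to 49.8 and 43.8 FPKM.

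The measured set of 13 held 5 lower, 5 higher and 3 other genes, with a median log2 ratio of -0.32 and a mean of 0.10. Beside the 5.19% lower and 2.71% higher among all measured genes, and 6.87% and 3.41% among genes under 15 FPKM in both libraries, these counts are a description only, because 8 of the 13 reached 1 FPKM in 1 library only and so had to differ to some degree. Of those 8, Hist1h1c, Hist1h2bc and Hist2h2be passed through the wild-type library, and none of these 3 was higher. Hist1h2ab, Hist1h2ai, Hist2h2aa2, Hist1h2bj and Hist1h4d passed through the knockout library, and all 5 were higher. The same filter favours ratios away from 0 in the values and intervals given below for these 8 genes. Among the 5 that reached 1 FPKM in both libraries, 3 were lower and 0 higher. Of these 3, Hist1h2ao and Hist2h2aa1 each share their coding sequence with another copy. Summed with Hist1h2ap and with Hist2h2aa2, they had log2 ratios of FPKM + 1 of -0.35 and -0.52, neither past 1.5-fold. Without the added 1 FPKM, the sum of Hist2h2aa1 and Hist2h2aa2 was 1.505-fold lower, just past the limit. The remaining gene was Hist3h2a.

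Within this family of copies, Hist1h2ao was lower and Hist1h2ai higher in the knockout library. Hist1h2ao read 10.6 FPKM in wild type and 5.65 FPKM in the knockout, a log2 ratio of FPKM + 1 of -0.80, from 108 and 56 reads. Hist1h2ai read 0.58 and 12.2 FPKM, a log2 ratio of 3.07, from about 4 and 91 reads. The read numbers of Hist1h2ai came from transcript length, because no whole reads gave its deposited p-value. Summed with Hist1h2ap and Hist1h2ao, the 3 genes read 185 and 157 FPKM, a log2 ratio of -0.24. Hist1h2ai read 11.7 FPKM more in the knockout library, beside 34.8 FPKM less for Hist1h2ap, and how reads were shared between these copies was not tested.

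The Hist2h2aa pair on chromosome 3 showed the same limit more plainly. Hist2h2aa1 read 8.64 FPKM in wild type and 3.17 FPKM in the knockout, a log2 ratio of -1.21. Hist2h2aa2 was listed at 0 in the wild-type library and read 2.57 FPKM in the knockout library, from 27 reads. Since Hist2h2aa1 and Hist2h2aa2 have the same coding sequence, their sum is the value to read. It was 8.64 and 5.74 FPKM, a log2 ratio of -0.52.

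Other H2A genes were low. Hist3h2a, from the small cluster on chromosome 11, read 5.31 FPKM in wild type and 1.97 FPKM in the knockout, a log2 read ratio of -1.42 with an interval from -2.29 to -0.62. It overlaps Trim17 on the same strand, and reads of the overlap cannot be told apart. Trim17 read 0.26 and 0.28 FPKM. Hist1h2ab was listed at 0 in the wild-type library and read 1.11 FPKM in the knockout library from 10 reads. Set against a floor of 3 reads in wild type, this was 3.39-fold higher. With the counting error of the 10 reads included, the lower end of the log2 read ratio was 1.19, a smaller fold. The gene reached 1 FPKM in the knockout library only, which favoured a ratio above 0.

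All 13 H2A copies among the members summed to 200 FPKM in wild type and 166 FPKM in the knockout, a log2 ratio of -0.26. The read interval ran from -0.39 to -0.18. Without Hist1h2ap the sum was 26.3 and 27.7 FPKM, a log2 ratio of 0.07, and in reads the log2 ratio was -0.07 with an interval from -0.33 to 0.19. What remains includes Hist1h2ai, which was higher in the knockout library. The 8 copies other than Hist1h2ap, Hist1h2ao, Hist1h2ai and the Hist2h2aa pair summed to 6.51 and 4.07 FPKM, with a read interval from -1.31 to -0.04. Hist3h2a, which overlaps Trim17, was 81.6% of that sum in wild type and 48.4% in the knockout. It fell by more than the sum did, so the other copies together were higher in the knockout library. They include Hist1h2ag, Hist1h2an and Hist1h2ae, as close to Hist1h2ap in coding sequence as Hist1h2ai or closer.

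The H2B sum was lower in the knockout library, and 1 gene held most of its FPKM in wild type. The 13 H2B copies summed to 9.43 FPKM in wild type and 4.55 FPKM in the knockout, a log2 ratio of FPKM + 1 of -0.91. Hist1h2bc read 5.79 and 0.71 FPKM, from 79 and 9 reads, a log2 read ratio of -3.11 with an interval from -4.29 to -2.11. Without it the other 12 copies summed to 3.64 and 3.84 FPKM, a log2 ratio of 0.06. In reads these 12 copies were lower, with 108 and 77 reads and a log2 read ratio of -0.46 (interval from -0.91 to -0.03), since reads give more weight to the long transcript of Hist2h2be. The direction of what remains thus depended on the scale. Hist1h2bc is annotated without the stem-loop.

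Of the other H2B genes, Hist2h2be read 1.62 FPKM in wild type and 0.96 FPKM in the knockout, from 84 and 49 reads. Its log2 read ratio was -0.75, with an interval from -1.29 to -0.23. Hist1h2bj was listed at 0 in the wild-type library and read 1.07 FPKM in the knockout library from 8 reads. Set against the floor of 3 reads in wild type, this was 2.71-fold higher. With the counting error of the 8 reads included, the lower end of the log2 read ratio was 0.795, a smaller fold. Hist1h2bj reached 1 FPKM in the knockout library only, which favoured a ratio above 0.

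**Figure D2:**
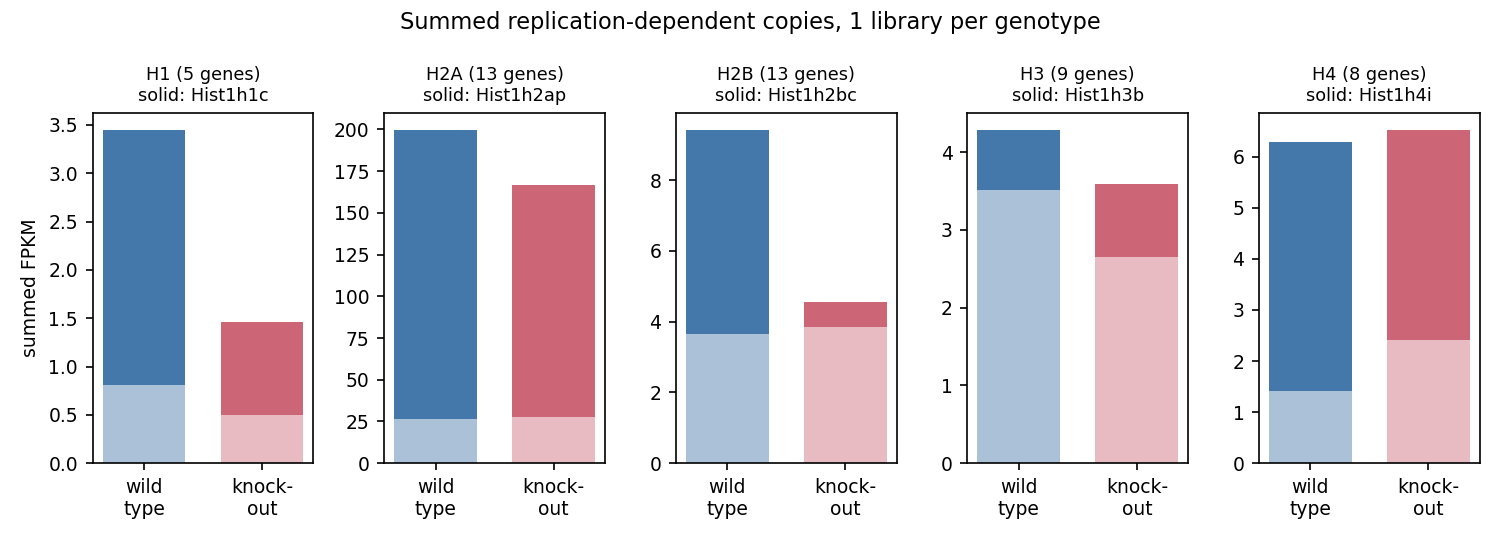
Summed FPKM of the replication-dependent copies of each histone class in 1 wild-type and 1 knockout library, with a separate axis from 0 in each panel. The solid part is the copy with the highest level in either library and the pale part all other copies. The pale parts are 26.3 and 27.7 FPKM in H2A, with Hist1h2ai among them, and 3.64 and 3.84 FPKM in H2B, where reads gave 108 and 77.

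The replication-dependent linker genes summed to 3.45 FPKM in wild type and 1.46 FPKM in the knockout, a log2 ratio of -0.86. Hist1h1c, for H1.2, supplied most of it. It read 2.64 and 0.96 FPKM, from 36 and 12 reads, and the other 4 genes together had 11 and 7 reads.

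No H3 gene of the clusters among the members reached 1 FPKM, and copies without a row in the deposited table are in no class sum here. The 9 copies summed to 4.29 FPKM in wild type and 3.59 FPKM in the knockout, from 35 and 32 reads, and the interval of the log2 read ratio ran from -0.84 to 0.63. The clustered genes were 0.77% of the summed H3 FPKM in the wild-type and 0.66% in the knockout library, so nearly all H3 FPKM came from H3f3a and H3f3b. For H2A the clustered genes were 22.0% and 20.6%.

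The 8 H4 copies, a class with no replacement gene among the members, summed to 6.28 FPKM in the wild-type library and to 6.53 FPKM in the knockout library. The interval of their log2 read ratio ran from -0.65 to 0.63. Hist1h4i read 4.87 and 4.12 FPKM, a log2 ratio of -0.20. Hist1h4d read 0.23 and 1.76 FPKM, from 1 and 11 reads, and its interval ran from 0.70 to 8.91. It reached 1 FPKM in the knockout library only, which favoured a ratio above 0.

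**Figure D3:**
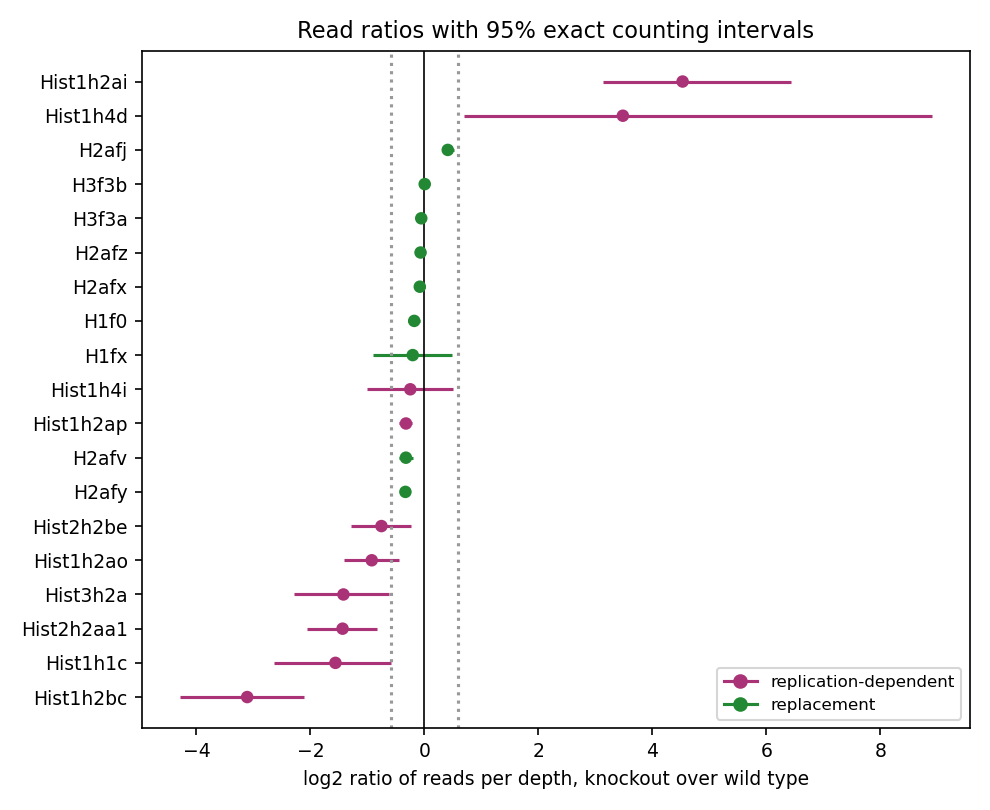
Log2 ratio of reads per depth, knockout over wild type, for the 19 measured histone genes with reads in both libraries, with 95% exact counting intervals and dotted lines at 1.5-fold. Hist1h2bc, Hist2h2aa1, Hist3h2a and, by a narrow margin, Hist1h1c lie wholly beyond the lower line. Hist1h4d and Hist1h2ai lie wholly beyond the upper line, with the reads of Hist1h2ai taken from transcript length. Hist1h2bc, Hist1h1c, Hist1h4d and Hist1h2ai reached 1 FPKM only in the library where they are high, which favours such intervals. Summed with Hist2h2aa2, which is not shown, Hist2h2aa1 has a ratio of -0.55 with an interval from -1.05 to -0.06. Replacement genes other than H1fx have narrow intervals.

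All histone genes together were 0.294% of summed FPKM in the wild-type and 0.272% in the knockout library. Replication-dependent genes supplied 14.7% of this histone FPKM in the wild-type and 13.1% in the knockout library. Without Hist1h2ap the shares were 3.69% and 3.48%.

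The annotated ends of the replication-dependent transcripts differed. Of the 48, 17 end within 60 bases of the stem-loop, 17 run past it and 14 have none in the annotated transcript. Among the last, the transcripts of Hist1h2ai, Hist1h2ak and Hist1h2an are 393 bases, the length of the coding sequence. They hold no bases after the stop codon, so the missing stem-loop there describes the annotation and not the mRNA. The first kind held 196 FPKM in wild type and 154 FPKM in the knockout, mostly Hist1h2ap. The kind that runs past held 17.1 and 12.8 FPKM, and the kind without a stem-loop 10.5 and 15.3 FPKM, the latter with Hist1h2ai. These sums sort genes by their GENCODE ends and do not show that the FPKM was measured on transcripts with those ends. Hist3h2a, for 1, has a GENCODE transcript of 2146 bases but spans only 58954685 to 58955192 in RefSeq. Its 5.31 FPKM in wild type came with 49 reads, solved with the shorter RefSeq length. A match to the poly(A) signal, AATAAA or ATTAAA in the last 50 bases of a GENCODE transcript, was found in 13 of the 48. It was found in 9 of the 10 replacement genes.

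Promoters of the clustered genes were searched for 2 core elements. RefSeq promoters, 250 bases before to 50 after the start, matched 43 replication-dependent and 9 replacement genes. TATAAA on either strand was in 48.8% of the former, 11.1% of the latter and 14.2% of 27025 promoters of the same length. CCAAT on either strand was in 88.4%, 66.7% and 37.9%. These matches are descriptions and not sites.

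H2A and H2B genes often lie head to head. Of the members, 6 pairs start within 500 bases of each other on opposite strands. Hist1h2ap (174 and 139 FPKM) faces Hist1h2br (0.09 and 0.17 FPKM), and Hist1h2ao (10.6 and 5.65 FPKM) faces Hist1h2bq (0.09 and 0.17 FPKM). In both pairs the H2A gene was the abundant one, and the H2B partners, whose coding sequences are identical, rested on 3 and 4 reads each.

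Genes that make and place histones were read beside the 5.19% lower and 2.71% higher among all measured genes. Of 21 genes for histone mRNA transcription and processing, 0 were lower and 1 was higher, and the median log2 ratio was -0.03. Slbp read 62.4 FPKM in wild type and 57.7 FPKM in the knockout. Npat, the coactivator of histone gene clusters, read 9.29 and 8.66 FPKM. The gene past 1.5-fold was Snrpf, for an Sm protein, at 39.2 and 62.6 FPKM.

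Of 29 histone chaperone and deposition genes, 0 were lower and 0 higher, with a median log2 ratio of 0.04. The most abundant were Npm1, for nucleophosmin, at 1086 and 1011 FPKM, and Nap1l1, an H2A and H2B chaperone, at 299 and 263 FPKM. Of 38 S-phase genes, 1 was lower and 0 higher, while 36 had a log2 ratio below 0 and the median was -0.24. Over all measured genes, 6037 of 10998 had a ratio below 0 and the median was -0.03. Ccne2, for cyclin E2, read 9.07 and 5.43 FPKM. Of 20 mitotic genes, 0 were lower and 0 higher, with a median of -0.11, and the most abundant, Ube2c and Top2a, read 194 and 190 FPKM and 158 and 139 FPKM. The direction of the S-phase list was that of the summed replication-dependent genes, but also that of the summed replacement genes and of the mitotic median. The H4 sum went the other way in FPKM, at 6.28 and 6.53. Whether the cultures differed in their share of cells in S phase was not tested.

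**Figure D4:**
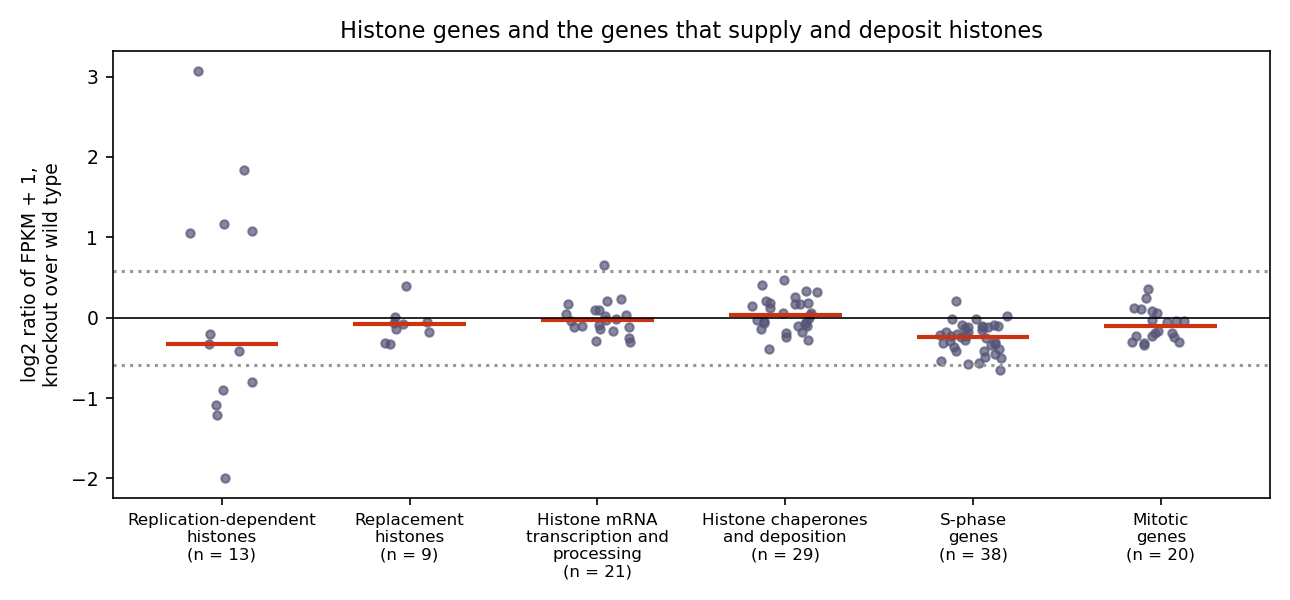
Knockout over wild-type ratio of FPKM + 1, on the log2 scale, for each measured gene of 6 groups, with red bars at the medians and dotted lines at 1.5-fold. Replication-dependent histone genes run from Hist1h2bc at -1.99 to Hist1h2ai at 3.07, both of which reached 1 FPKM in 1 library only, and the S-phase median is at -0.24.

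Markers of other cells were read in the same libraries. The CD8 T cell genes Cd8a (98.1 and 55.7 FPKM) and Cd8b1 (212 and 126 FPKM) were 2 of 2 lower in the knockout library, and their summed level was 310 and 182 FPKM. Of 4 macrophage and dendritic genes, 2 were higher (Cd74, 15.4 and 39.4 FPKM; Lyz2, 1.02 and 2.08 FPKM), and Itgam and Adgre1 stayed below 1 FPKM. Of 3 granulocyte genes, Ly6g was lower (71.6 and 30.3 FPKM) and S100a9 higher (listed at 0 and 2.23 FPKM). The 3 B cell genes summed to 3.21 and 5.01 FPKM. Of 3 erythroid genes, Hba-a2 was higher (2.79 and 4.81 FPKM), and the list summed to 7.0 and 9.58 FPKM. The CD4 T cell genes Cd4 and Cd3e summed to 352 and 399 FPKM, with neither past 1.5-fold. Their part in the histone values was not tested.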

How the data were processed

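Per the labels' protocols, total RNA of 2 cultures went onto an Illumina HiSeq. Bowtie2, RSEM and GRCm38.p6 are named in the submitters' processing notes; the sources used here give no versions, filters or strandedness, so reads of genes that overlap on opposite strands cannot be told apart. The authors deposited 1 table of 17002 genes, whose expression values were read as FPKM made by the authors, since the columns sum to 517664 and 514343. The authors' deposited log2 ratio was recomputed within 0.001 for all 17002 rows, with 0 set to 0.01. The authors' deposited p-value compares 1 library with 1 library. The FDR column that the authors deposited is a score here, since 443 values exceed 1, and was not used. No column of another sample was present.

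Libraries were compared by the log2 ratio of FPKM + 1, with a limit of 1.5-fold and no test, for genes that reach 1 FPKM in either library. For 1802 of 1810 genes listed at 0 in 1 library, a Poisson comparison solved for whole reads within 0.05. With 50.41% of reads in the wild type, depth was about 19.2 M (quartiles 18.2 and 19.6 over 303 genes). Reads of 51 members had 1 solution, 6 took the one nearest to transcript length, and Hist1h2ai came from length alone. Counting intervals are 95% exact (Clopper-Pearson), and floors are 3 reads per library. Both cover counting error only, since reads carry no molecular identifiers.

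Named genes were all members with at least 1 FPKM in 1 library, those at 5 FPKM or more first, and per list the 2 highest and 2 lowest past 1.5-fold at most, or else the 2 most abundant members. Slbp, Npat, H2afy2, Hist1h2ag, Hist1h2be, Trim17, the low partners of the head-to-head pairs and the markers were named beyond that rule, after their values were seen. A marker gene of the lists is not reported here. Members and lists were chosen with earlier results of these data known. Alternatives covered pseudocount, minimum, fold, centring, averaging, the summed copies and reads; setting zeros to 3 reads and merging identical copies were chosen after seeing the data. In a simulation of this comparison with 10998 genes and counting error only, the 1.5-fold rule called 100 of 100 genes raised 3-fold, 98 of 100 lowered 3-fold and 14 unchanged genes. Reads were within 20% for 92.0% of 300 genes, and for 155 of 155 with 1 solution; the solver was thus tested on its own formula. Coordinates came from RefSeq and transcripts from GENCODE. Tools were scipy 1.17.1, pandas 2.3.3, numpy 2.4.6 and matplotlib 3.10.9 under Python 3.11.15.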

Additional observations from a re-analysis of the deposited data

How the results depend on the processing

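Of 128 alternative values for the main results, 111 stayed within their tolerance. With a pseudocount of 5 FPKM the replication-dependent genes gave 2 lower and 2 higher and a median log2 ratio of -0.15, and with a fold of 2 they gave 3 lower. With a minimum of 5 FPKM, 1 was higher and the median over 6 genes was -0.95. Without a minimum the median over 48 genes was -0.12, and the mean in place of the median was 0.10, of the opposite sign. Merging identical copies, chosen after seeing the data, gave 3 lower. S-phase genes at least 1.5-fold lower numbered 2 with a pseudocount of 0.1 FPKM and 0 with 5 FPKM. Without the most abundant copy, the log2 ratio of the H2A sum was 0.0705 and that of the H2B sum was 0.0609, both reversed in sign in FPKM though not in reads. The replication-dependent share of histone FPKM was 4.88% and 4.16% in reads, and 18.5% and 16.7% without H3f3a. Of 44 alternatives for single genes, 40 stayed within tolerance, and genes listed at 0 in the wild type moved with the pseudocount. The tolerance was wide. With a pseudocount of 5 FPKM, Hist1h2bc went from -1.99 to -0.92, and Hist1h1c from -0.89 to -0.36. Hist3h2a went from -1.09 to -0.56, so that it and Hist1h1c were no longer past 1.5-fold. The H1 sum, -0.86 with all copies and -0.27 without Hist1h1c, also counted as within tolerance. No paired analysis was possible because each genotype had 1 library. Depth limits the 36 replication-dependent genes that rest on 10 or fewer reads in both libraries.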
